A study of Mus musculus with 24 samples.

Results

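The 10 genes described here are markers of liver sinusoidal endothelial cells: Stab1, Stab2, Clec4g, Lyve1, Pecam1, Kdr, Bmp2, Fcgr2b, Oit3 and Dnase1l3. They were chosen by name, as the rows of the count table that carry these symbols, and all 10 were found among 55421 genes. The samples were not endothelial cells. They were hepatocytes from 24 male mice, prepared by collagenase perfusion, low-speed spins and a Percoll gradient, and their polyA RNA was sequenced in bulk. There were 6 mice in each of 4 groups: young and old mice on a normal diet (young ND, old ND) and young and old mice on a high-fat diet (young HFD, old HFD). By the labels, young mice were 6 months old and of the substrain C57BL/6N, and old mice were 24 months old and of the substrain C57BL/6J, so the effects of age and of substrain cannot be told apart. The study's text gives other ages and names C57BL/6 alone. HFD supplied 60% of its energy as fat and was fed for 9 weeks. The ND is a Teklad chow by the labels and a low-fat diet from another maker by the study's methods. The sample titles name 2 batches, each with 3 mice of every group, apart from old ND, which was split into 2 mice (batch 1) and 4 mice (batch 2).

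Sinusoidal endothelial cells line the capillaries of the liver. They have open pores and no basement membrane, and they take up waste from the blood through scavenger and lectin receptors. They also signal to hepatocytes: the BMP ligands they release drive transcription of hepcidin, the iron hormone, and their Wnt ligands help to pattern the lobule. Several of the 10 genes are used by other cells too. Pecam1 and Kdr are active in most blood endothelium, Lyve1 in lymphatic endothelium, and Fcgr2b in macrophages and B cells. In bulk RNA of a hepatocyte preparation, more endothelial cells and more RNA per endothelial cell cannot be told apart.

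Promoter sequences are shown for 3 of the scavenger and lectin receptor genes, and their part in the levels of the 10 genes was not tested. They come from the RefSeq table of build GRCm38.p6. The table held 5 of the 10 members (Stab1, Stab2, Clec4g, Kdr and Fcgr2b). Capitals mark the core of ETS-family sites, AGGAAG or CGGAAG on either strand, or the TATA box TATAAA on either strand. The motif letters do not overlap each other, except where AGGAAG repeats with shared letters in Clec4g. The sequences are on the minus strand, read 5′ to 3′, and end at the base before the annotated gene.
Stab1, chr14:31168642-31168891: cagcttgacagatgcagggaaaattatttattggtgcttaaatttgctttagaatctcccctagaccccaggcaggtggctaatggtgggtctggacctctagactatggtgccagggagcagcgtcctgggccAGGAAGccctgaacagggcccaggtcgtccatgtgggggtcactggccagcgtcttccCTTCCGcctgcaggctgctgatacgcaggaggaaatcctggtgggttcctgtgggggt
Stab2, chr10:87008026-87008192: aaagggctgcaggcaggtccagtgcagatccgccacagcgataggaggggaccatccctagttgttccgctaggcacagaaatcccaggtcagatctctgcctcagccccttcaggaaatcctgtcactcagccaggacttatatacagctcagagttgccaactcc
Clec4g, chr8:3720652-3720901: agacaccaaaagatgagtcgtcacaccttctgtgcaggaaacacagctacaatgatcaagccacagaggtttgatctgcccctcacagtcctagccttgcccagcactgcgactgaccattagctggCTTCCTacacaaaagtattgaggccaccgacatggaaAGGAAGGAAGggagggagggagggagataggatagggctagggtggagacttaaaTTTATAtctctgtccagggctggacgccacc
An ETS core was found in 3 of the 5 member promoters and in 39.2% of 32851 promoters in the table. In Stab2 its only match lay 40 bases before the RefSeq start, which is inside the gene as GENCODE draws it and is not printed. The sequence TATAAA was found, on either strand, in 1 of the 5 and in 12.4% of all promoters. In Clec4g it lay 31 bases before the start on the strand opposite to the gene, so it is printed as TTTATA. The GATA core AGATAA, on either strand, was in 0 of the 5 and in 9.99% of all promoters.

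All 10 members are protein-coding genes, and all passed the filter on low counts, which left 13583 genes to test. Total counts per mouse were 9200332 to 22185069, and the 10 members together took 253 to 11284 counts. Their summed level was 16.7 to 206 CPM in young ND, with a median of 81.9 CPM. CPM is the gene's count divided by the mouse's total count, times 1000000. It was 45.5 to 437 CPM in young HFD (median 183 CPM). It was 55.9 to 824 CPM in old ND (median 207 CPM) and 31.1 to 788 CPM in old HFD (median 133 CPM). Every group thus held mice with low and mice with high levels, and all 4 groups overlapped. These medians pool the 2 batches, which differed widely, and old ND holds more batch 2 mice than the other groups do. Within batch 1 the medians were 21.7 CPM in young ND, 97.0 CPM in young HFD, 71.0 CPM in old ND and 64.6 CPM in old HFD. Within batch 2 they were 144 CPM in young ND, 352 CPM in young HFD, 237 CPM in old ND and 485 CPM in old HFD. Young ND was thus lowest in both batches, whereas old ND was highest in neither. For scale, 12 hepatocyte genes, led by albumin and apolipoproteins, summed to 54980 to 167200 CPM, so the endothelial markers were a trace beside them in every mouse. The mice of each group were compared in pairs, no pair had counts equal within counting noise, and each mouse was therefore counted as 1 sample.

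The scavenger, lectin, Fc and hyaluronan receptor genes are given first. Stab1 and Stab2 encode stabilin-1 and stabilin-2, large endocytic receptors that clear hyaluronan, modified lipoproteins and other ligands. Stab1 (ENSMUSG00000042286, chr14:31139013-31168641) was at 2.05, 7.24 and 16.4 CPM (lowest, median and highest mouse) in young ND. It was at 2.696, 15.9 and 48.7 CPM in young HFD, at 5.66, 21.4 and 85.5 CPM in old ND, and at 2.25, 10.8 and 73.6 CPM in old HFD. The lowest young HFD and old HFD mice were thus as low as young ND mice. Stab2 (ENSMUSG00000035459, chr10:86841198-87008025) was at 2.25, 11 and 23.8 CPM in young ND and at 13.4, 24.9 and 49.3 CPM in young HFD. It was at 6.96, 21.8 and 104 CPM in old ND and at 10.4, 22.97 and 82.9 CPM in old HFD. Its lowest young HFD mouse was above the young ND median, as was so for Lyve1 but for no other member.

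Clec4g encodes LSECtin, a C-type lectin of sinusoidal endothelium, and its position is chr8:3707064-3720651 (ENSMUSG00000074491). It was at 2.84, 12.6 and 29.4 CPM in young ND, at 3.82, 25.0 and 59.2 CPM in young HFD, at 7.69, 30.4 and 140 CPM in old ND, and at 2.32, 20.9 and 118 CPM in old HFD. The highest mouse of old ND was far above the rest of its group. Fcgr2b encodes the inhibitory Fc receptor for IgG, which removes immune complexes in the sinusoid (ENSMUSG00000026656, chr1:170958617-170976547). It was at 2.51, 11.5 and 33.4 CPM in young ND, at 3.99, 27.9 and 60.4 CPM in young HFD, at 10.9, 35.5 and 118 CPM in old ND, and at 3.72, 19.8 and 126 CPM in old HFD. Reads that fit both Fcgr2b and its close neighbour Fcgr3 could be lost or misplaced, so its level is less certain. Lyve1 encodes a hyaluronan receptor (ENSMUSG00000030787, chr7:110850607-110863239) and had the lowest median CPM of the 10 in each group. It was at 0, 0.798 and 2.39 CPM in young ND, at 1.12, 3.02 and 11.9 CPM in young HFD, at 0.653, 2.28 and 15.6 CPM in old ND, and at 0.852, 2.36 and 19.4 CPM in old HFD. Young ND replicate 2 had 0 Lyve1 counts of 15134973, which allows a level of up to 0.198 CPM by counting error alone, and 4 mice had under 10 counts. PCR reads without molecular identifiers are not independent molecules, so this limit covers counting error only.

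An adhesion gene and the VEGF receptor gene are active in blood endothelium at large. Pecam1 encodes the junction protein CD31 (ENSMUSG00000020717, chr11:106654217-106750628). It was at 0.902, 3.83 and 8.43 CPM in young ND, at 1.57, 7.68 and 21.7 CPM in young HFD, at 2.47, 8.94 and 41.4 CPM in old ND, and at 1.94, 6.39 and 38.8 CPM in old HFD. Kdr encodes VEGFR2, the main signalling receptor for VEGF-A (ENSMUSG00000062960, chr5:75932827-75978458). It was at 1.72, 10.6 and 32.7 CPM in young ND, at 5.06, 28.7 and 60.1 CPM in young HFD, at 6.75, 33.3 and 126 CPM in old ND, and at 1.86, 18.8 and 128 CPM in old HFD. For both genes the median was lowest in young ND and the highest single mice were old.

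The secreted products are encoded by Bmp2, Oit3 and Dnase1l3. Bmp2, a ligand that acts on hepatocytes (ENSMUSG00000027358, chr2:133552159-133562885), was at 0.330, 4.06 and 12.99 CPM in young ND, at 0.843, 9.25 and 23.3 CPM in young HFD, at 2.83, 11.99 and 39.3 CPM in old ND, and at 0.852, 6.88 and 43.6 CPM in old HFD. Oit3, which encodes a zona pellucida domain protein (ENSMUSG00000009654, chr10:59422958-59441778), was at 0.859, 5.75 and 14.3 CPM in young ND, at 2.696, 13.3 and 33.1 CPM in young HFD, at 3.26, 11.2 and 47.0 CPM in old ND, and at 2.25, 7.29 and 53.8 CPM in old HFD. Dnase1l3 encodes a secreted DNase that degrades DNA in microparticles (ENSMUSG00000025279, chr14:7964533-7994573). It was at 3.04, 13.5 and 31.9 CPM in young ND, at 3.54, 28.2 and 69.5 CPM in young HFD, at 8.71, 29.4 and 108 CPM in old ND, and at 2.40, 17.6 and 104 CPM in old HFD. In all 10 members young ND had the lowest median of the 4 groups, over all mice and within each batch. The highest median was in old ND for 7 members over all mice, but within batch 1 it was in young HFD for 9 members and in old HFD for 1, and within batch 2 it was in old HFD for all 10. The order of the 3 other groups over all mice is therefore not read as a result. Within each group the mice spread over a wider range than the group medians did. Stab1, Stab2, Clec4g and Fcgr2b overlap genes on the other strand, and the counting is not stated to use strand. The largest such neighbour by counts, Nt5dc2 at Stab1, had 958 counts over the 24 mice.

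**Figure D1:**
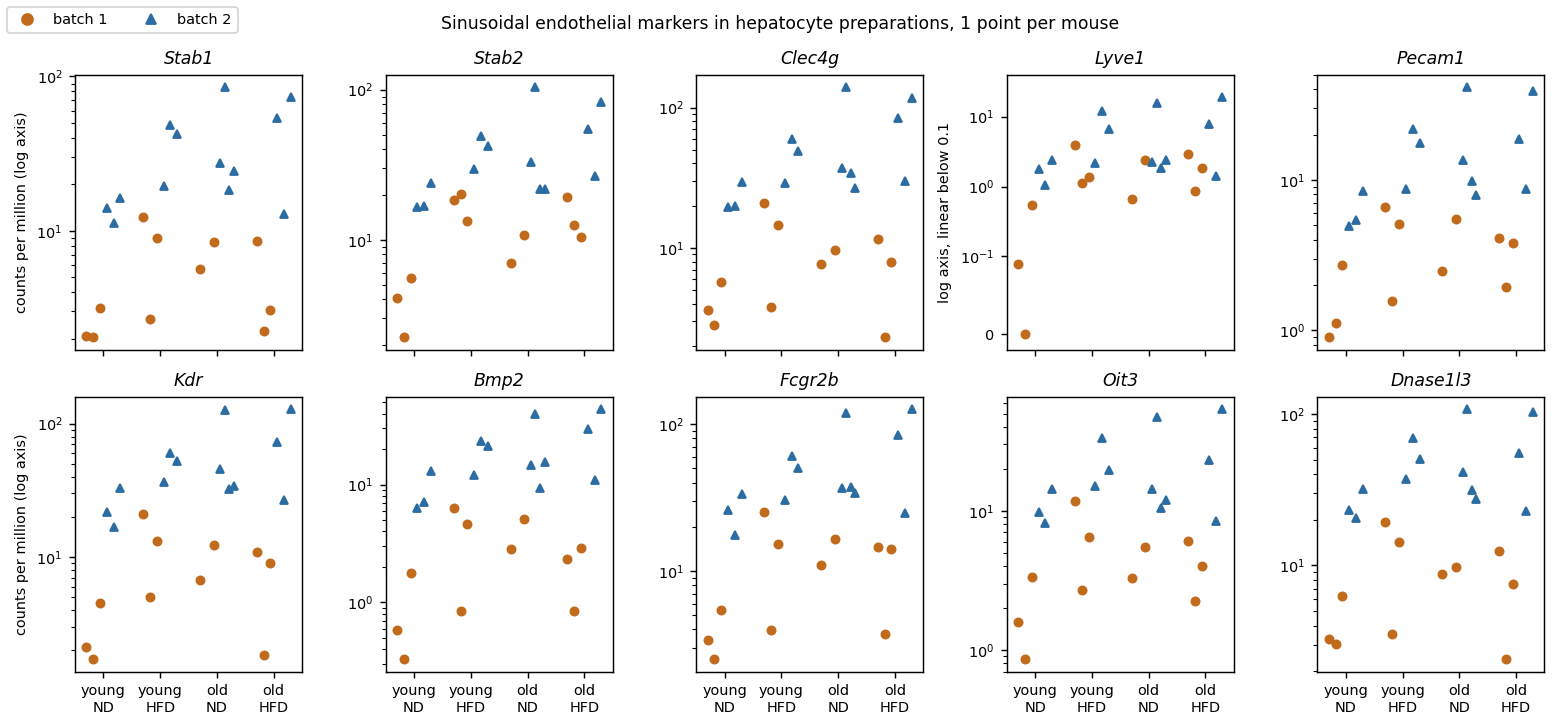
CPM of each of the 10 markers on a log axis (linear below 0.1 for Lyve1), 1 point per mouse, by group, with batch 1 as circles and batch 2 as triangles. The triangles lie above the circles of the same group in 9 of the 10 panels, and old ND replicate 4 is the highest old ND point in all of them.

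Levels between genes were compared per length, as CPM per kilobase of the gene's merged exons. By the median over 24 mice the order was Clec4g (8.35 CPM per kilobase), Fcgr2b (4.33), Dnase1l3 (4.22), Oit3 (3.27), Kdr (2.37), Stab2 (2.25), Bmp2 (1.89), Stab1 (1.23), Pecam1 (0.975) and Lyve1 (0.683). Clec4g was above Fcgr2b in 24 of 24 mice and Oit3 was above Kdr in 24 of 24. Fcgr2b was above Dnase1l3 in 12 of 24 mice, Kdr above Stab2 in 13 and Stab2 above Bmp2 in 11, so these neighbours did not differ in a steady way. In the deposited FPKM values the first 3 were the same, but Bmp2 ranked 4, Lyve1 8, Stab2 9 and Pecam1 10, so the order below the first 3 differed between these measures. The FPKM values differ from the CPM per kilobase both in their transcript models and in the authors' adjustment between batches, and which of these moved the ranks was not tested.

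Batch gave larger fitted fold changes than any comparison of age or diet in 9 of the 10 members, Lyve1 being the exception. All 10 were higher in batch 2 than in batch 1 (edgeR's quasi-likelihood test, Benjamini-Hochberg adjusted p from 2.88e-05 to 0.00244), whereas 18% of all tested genes were called higher. The log2 fold changes between batches ran from 1.88 for Stab2 to 2.83 for Bmp2, that is 3.67-fold to 7.10-fold, with SEs of 0.28 to 0.49. Their median was 2.39, and that of all tested genes was 0.01. Mouse by mouse, every batch 2 mouse was above every batch 1 mouse of its group for all 10 members in young ND (23% of genes) and for 9 members in old HFD (12.5%), old ND (13.2%) and young HFD (18%). The exception was Lyve1 each time. The other 9 were separated in all 4 groups at once, as were 2.7% of genes. In young ND, for example, the 10 markers summed to 16.7, 21.7 and 39.1 CPM in batch 1 and to 125, 144 and 206 CPM in batch 2. Batch was therefore a term in the model of each comparison that follows, and within-batch values are given beside the pooled ones.

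HFD was compared with ND in young mice first. All 10 markers had higher fitted levels in young HFD than in young ND, by log2 1.26 (Dnase1l3, 2.40-fold) to 2.45 (Lyve1, 5.45-fold), with a median of 1.47 against 0.01 for all tested genes. Stab2 alone passed the threshold (log2 1.57, SE 0.38, 2.97-fold, adjusted p = 0.0254 by edgeR's quasi-likelihood test). That is 1 of 10 members, beside 1.91% of all genes called higher. The other 9 had unadjusted p under 0.05 and adjusted p of 0.0519 to 0.109, and their 95% intervals lay above 0, the lowest bound being 0.34 for Clec4g. DESeq2 called 8 of the 10, but it also called 9.24% of all genes in either direction, against 3.5% by edgeR.

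The direction was the same in each batch. In batch 1 the 10 log2 differences between young HFD and young ND were 1.41 to 3.23 (median 1.84), and in batch 2 they were 0.86 to 1.98 (median 1.07). Over all mice no member separated young HFD from young ND, as 2.19% of genes did. Within both batches Stab2 and Kdr did, with every young HFD mouse above every young ND mouse of its batch, as for 6.21% of genes. The call on Stab2 was lost without young ND replicate 1, 2 or 4 or young HFD replicate 1, each of which left 0 of 10 called. In these refits 1.05% to 1.46% of all genes were called in either direction, and the median log2 difference of the 10 was 1.23 to 1.45. The count rose to 2 without old ND replicate 5 (3.62% of all genes called) or 6 (3.49%), and to 3 without young HFD replicate 2 (3.12%). It rose to 4 without young HFD replicate 4 (4.62%), old HFD replicate 2 (7.23%) or old HFD replicate 5 (4.26%), and to 6 without old ND replicate 4 (4.95%).

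HFD was then compared with ND in old mice. No member passed the test. The log2 differences between old HFD and old ND were −0.12 (Stab1) to 0.54 (Lyve1), with a median of 0.03, 0 of 10 were called higher beside 1.37% of all genes, and 0 had an unadjusted p under 0.05 (edgeR's quasi-likelihood test, and 0 of 10 by DESeq2). The intervals were wide: the lowest bound was −1.02 and the highest 1.86, and for 4 of the 10 members the interval lay within a log2 difference of 1 either way. In batch 1 the median difference was −0.35, with 2 of 10 above 0, and in batch 2 it was 0.32, with 10 of 10 above 0. Whether the batches differed was not tested. The pooled median turned on single mice: it was 0.55 without old ND replicate 4 and −0.35 without old HFD replicate 6.

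**Figure D2:**
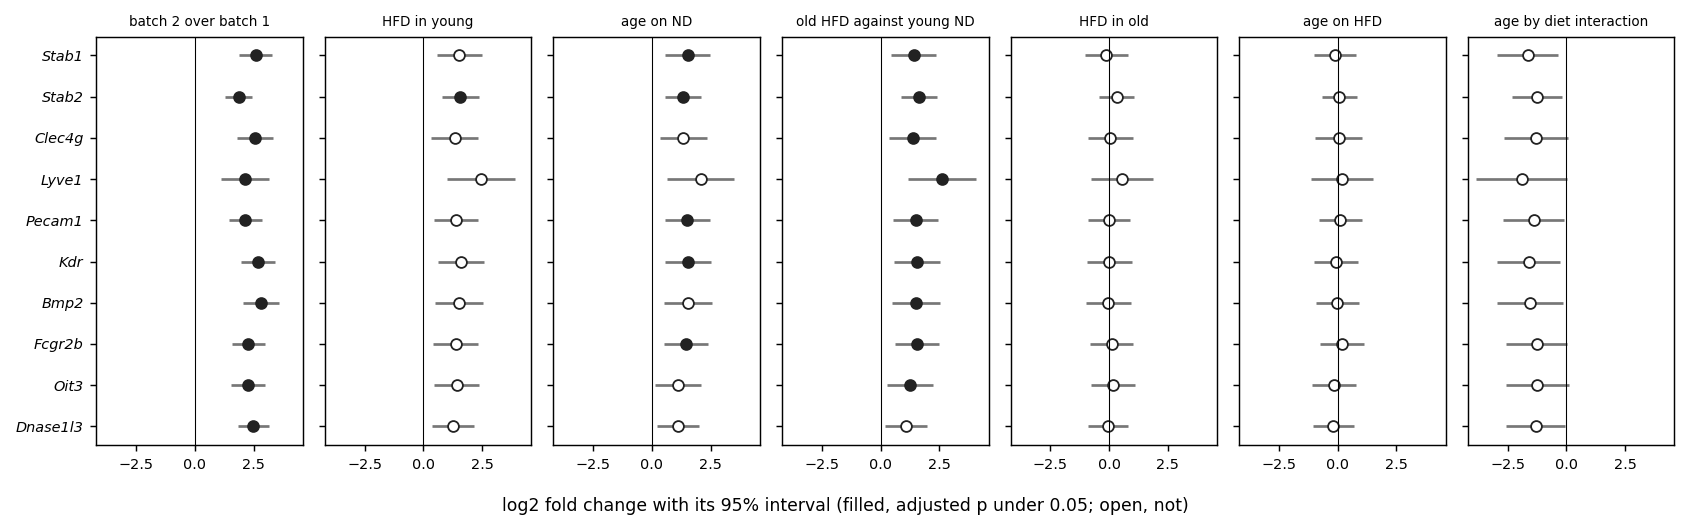
Fitted log2 fold change of each marker with its 95% interval in 7 comparisons from 1 edgeR model of 24 mice; filled points have an adjusted p under 0.05 and open points do not. All 10 points are filled for batch, 1 for HFD in young, 5 for age on ND and 9 for old HFD against young ND, and none in the other 3 panels.

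Age was compared on each diet. On ND, all 10 markers had higher fitted levels in old than in young mice, by log2 1.10 (Oit3) to 2.07 (Lyve1), with a median of 1.48 against 0.01 for all genes. By edgeR's quasi-likelihood test 5 of the 10 rose, beside 7.26% of all genes. They were the receptors Stab1 (log2 1.53, SE 0.46, adjusted p = 0.0407), Stab2 (1.33, SE 0.38, 0.0295) and Fcgr2b (1.46, SE 0.46, 0.0487), the adhesion gene Pecam1 (1.503, SE 0.47, 0.0450) and the VEGF receptor Kdr (1.54, SE 0.47, 0.0413). The other 5 had adjusted p of 0.0520 (Bmp2) to 0.160 (Oit3) and unadjusted p under 0.05. Within both batches Stab1 and Fcgr2b were higher in every old ND mouse than in every young ND mouse, as were 4.88% of genes. Over all mice no member was, beside 2.06% of genes.

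Apart from Stab2 (adjusted p = 0.0295 by edgeR's quasi-likelihood test), the 5 calls rested on adjusted p just under the threshold. They fell to 0 without young ND replicate 1, 2, 4 or 5, old ND replicate 2 or old ND replicate 4. In these refits 4.26% to 6.14% of all genes were called in either direction, against 8.5% with all mice, and the median log2 difference of the 10 was 1.34 to 1.44, except that it was 1.01 without old ND replicate 4. They fell to 2 without young ND replicate 6 (6.29% of all genes called), and to 3 without young HFD replicate 3 (8.01%), young HFD replicate 6 (7.66%) or old HFD replicate 1 (7.98%). The median log2 difference was 1.40 in batch 1 and 1.38 in batch 2, and 10 of 10 were above 0 in each.

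On HFD, no marker passed the test between old and young mice. The log2 differences were −0.20 (Dnase1l3) to 0.19 (Fcgr2b), with a median of 0.01, 0 of 10 were called higher beside 1.82% of all genes, and 0 had an unadjusted p under 0.05 (edgeR, and 0 of 10 by DESeq2). The intervals reached from −1.15 to 1.49. The batches went opposite ways: all 10 markers were lower in old HFD than in young HFD in batch 1 (median log2 −0.77) and higher in batch 2 (median 0.51). Whether the batches differed was not tested. The pooled median was 0.26 without young HFD replicate 1 and −0.31 without old HFD replicate 6.

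Old HFD was compared with young ND as the combined change of age and diet. Here 9 of the 10 rose, beside 17.3% of all genes called higher, by log2 1.27 (Oit3, SE 0.47) to 2.61 (Lyve1, SE 0.70), with adjusted p of 0.00335 (Stab2) to 0.0449 (Oit3) by edgeR's quasi-likelihood test. Dnase1l3 was the exception (log2 1.06, SE 0.43, adjusted p = 0.0653). The median log2 difference of the 10 was 1.497, against 0.04 for all genes, and it was 1.04 in batch 1 and 1.72 in batch 2. Stab2 alone was higher in every old HFD than every young ND mouse within both batches, as were 5.35% of genes, and over all mice no member was, beside 2.92%. The count fell to 2 without old HFD replicate 6, where 25.1% of all genes were called in either direction against 30.2% with all mice, and the median was 1.12. It fell to 5 without young ND replicate 5 or old HFD replicate 4, where 24.1% were called each time and the medians were 1.44 and 1.43. Of 11 other settings, 5 ended most calls. The count was 1 without the batch term (22.4% of all genes called), 1 in batch 1 alone (6.79%) and 0 in batch 2 alone (4.33%). With limma on log2(FPKM + 1) and log2(FPKM + 0.1) it was 2 (23.3%) and 3 (24.6%). The remaining settings gave 7 to 10. The 3 comparisons against young ND share its 6 mice, so their medians of 1.47 (young HFD), 1.48 (old ND) and 1.497 (old HFD) stand on 1 reference and are not independent of each other.

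The age by diet interaction asks whether HFD changed the markers differently in old and young mice. All 10 estimates were below 0, from −1.25 (Oit3) to −1.91 (Lyve1), with a median of −1.36 against −0.03 for all genes. By edgeR's quasi-likelihood test 0 of 10 were called, with adjusted p of 0.531 to 0.554, and 0% of all genes were called. At an unadjusted p under 0.05 there were 6, namely Stab1, Stab2, Pecam1, Kdr, Bmp2 and Dnase1l3, and DESeq2 called 0. The median moved to −0.85 without old ND replicate 4, and it was −2.11 in batch 1 alone and −0.79 in batch 2 alone. Without the count filter, however, edgeR called all 10 lower, as it did 1.82% of all genes in either direction. The call on the difference between young and old mice therefore depended on the filter.

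The markers rose and fell together from mouse to mouse, beyond what group and batch gave. After group and batch means were removed, the 45 pairs of members had Pearson correlations of log2 CPM of 0.606 (Stab2 and Bmp2) to 0.973 (Clec4g and Dnase1l3) over 24 mice, with a median of 0.907. The median over all pairs of tested genes was 0.00236. Of all gene pairs, 3.79% were above the lowest member pair and 0.0183% above the median one. These are descriptions over libraries that share depth and batch, without a test. Stab2 had the lowest typical correlation with the others (median 0.698), and Fcgr2b the highest (0.939).

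**Figure D3:**
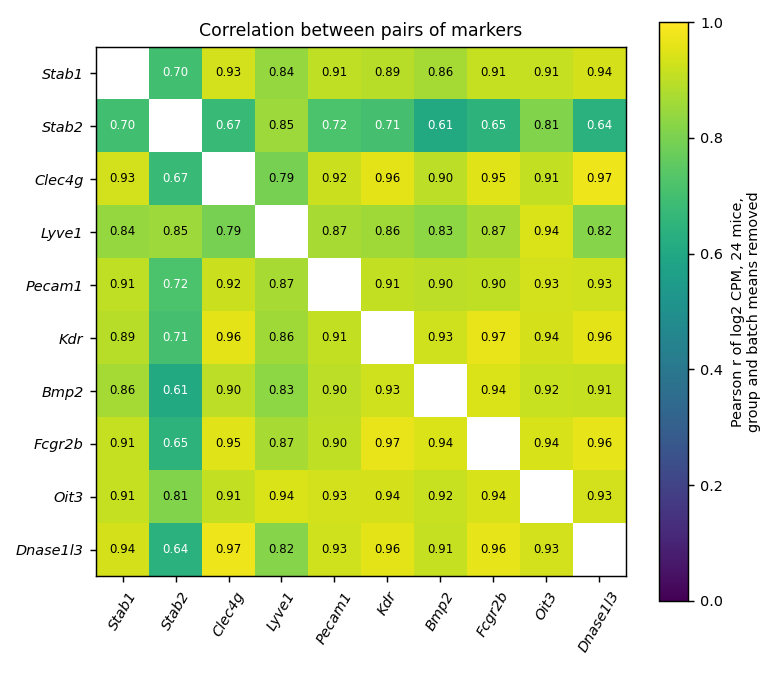
Pearson correlation between each pair of the 10 markers over 24 mice, on log2 CPM with group and batch means removed, with the color scale from 0 to 1. The row and column of Stab2 hold the lowest values, down to 0.606 with Bmp2, and the remaining pairs lie mostly above 0.8.

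Among the 13583 tested genes other than members, the 10 most like the mean of the members were Ptprb (r = 0.976), Tspan7 (0.958), Cd93 (0.958), Cd300lg (0.957), Clec14a (0.953), Aqp1 (0.952), Jam2 (0.944), Gpr182 (0.944), Flt4 (0.942) and Cdh5 (0.936), over 24 mice with group and batch means removed. Of these, 7 stood in the list of 32 other endothelial genes: Ptprb, Tspan7, Clec14a, Aqp1, Gpr182, Flt4 and Cdh5. The lists were chosen with earlier results of these data known, so this count is a description without a test. The median correlation with the mean of the members was 0.842 for the 32 other endothelial genes, 0.784 for 13 stellate cell and fibroblast genes, 0.756 for 11 endothelial genes of the central or portal side of the lobule, and 0.717 for 13 Kupffer cell genes. It was 0.194 for 6 lymphocyte genes and 0.389 for 3 neutrophil genes. It was −0.200 for 12 hepatocyte genes and 0.0244 for all tested genes. For 2 cholangiocyte genes it was 0.514. Stellate and Kupffer cell genes thus varied with the endothelial ones more closely than lymphocyte or neutrophil genes by these medians, and the hepatocyte genes had a median below 0.

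Set against the mean of the other 9 in the same mouse, most members kept a steady ratio. The SD of this log2 ratio over 24 mice was 0.23 (Oit3) to 0.34 (Kdr) for 7 members, 0.48 for Bmp2, 0.65 for Stab2 and 0.74 for Lyve1. Lyve1 had few counts. Stab2 had 34 to 1425 counts per mouse, and its widest ratios were in batch 1. Its log2 ratio was 2.98 in young HFD replicate 2 and 2.67 in old HFD replicate 2, followed by 1.47 in old HFD replicate 1, 1.43 in young ND replicate 1, 1.09 in old HFD replicate 5 and 1.04 in old HFD replicate 3. In the other 18 mice it was 0.32 to 0.93. In young HFD replicate 2, Stab2 was at 20.2 CPM and Stab1 at 2.696 CPM. In old HFD replicate 2 they were at 12.6 and 2.25 CPM. This pattern was picked out after the values were seen, and no test was made of it.

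**Figure D4:**
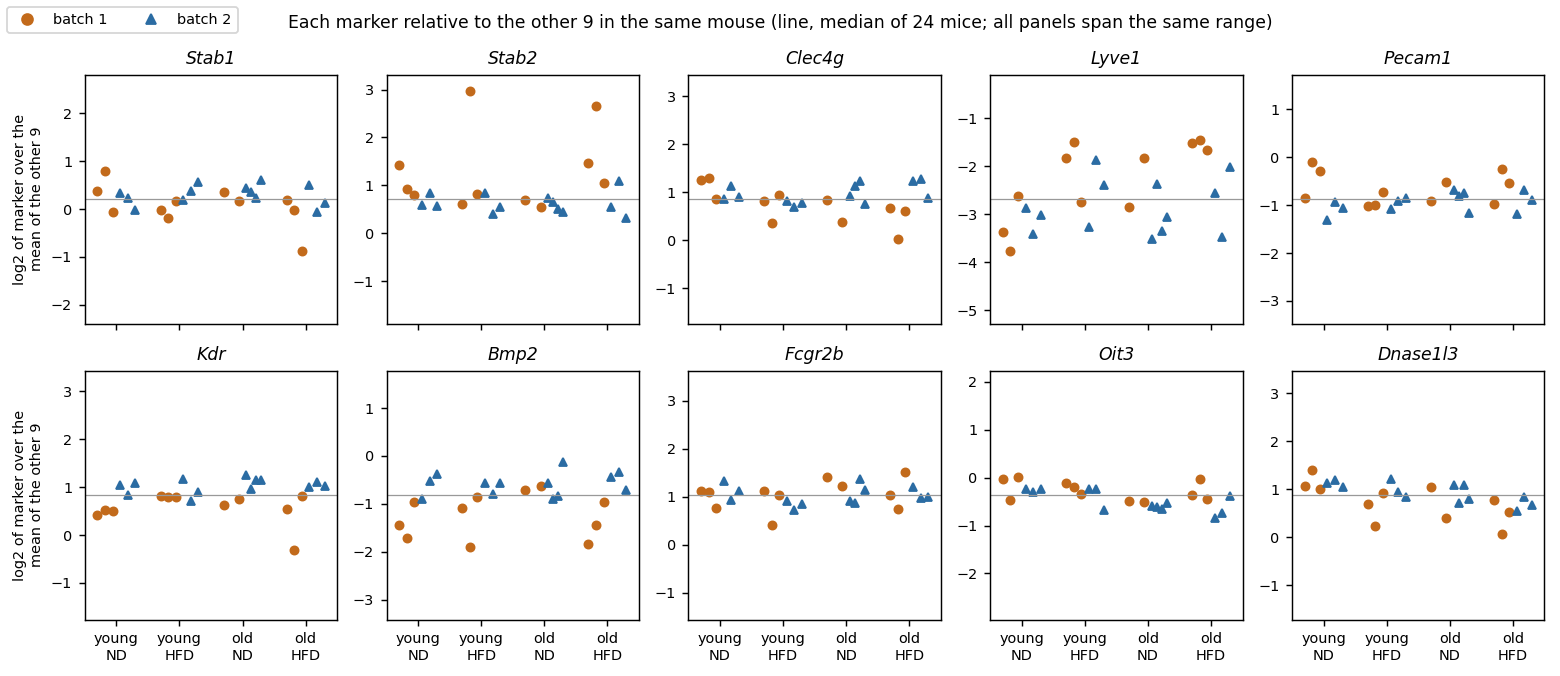
Log2 ratio of each marker to the mean of the other 9 in the same mouse, by group, with batch 1 as circles and batch 2 as triangles; the line is the median of 24 mice, and every panel spans the same range. The Stab2 panel shows young HFD replicate 2 at 2.98 and old HFD replicate 2 at 2.67, above the other mice.

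The list of other endothelial genes gave calls in the same comparisons. Of 32 such genes, among them the junction gene Cdh5, the angiopoietin receptor gene Tek and the VEGF receptor genes Flt1 and Flt4, 31 were higher in batch 2. In young HFD 7 rose over young ND, with a median log2 difference of 1.32, and those with the smallest p were Ushbp1 (log2 1.53, SE 0.41), the scaffold gene Mmrn2 (1.59, SE 0.43) and the tight junction gene Cldn5 (1.48, SE 0.40). In old ND 13 rose over young ND, with a median of 1.39, led by Plvap (2.07, SE 0.46), which encodes the protein of pore diaphragms, Vwf (2.81, SE 0.66), the gene for von Willebrand factor, and Mmrn2 (1.56, SE 0.43). In old HFD 20 rose over young ND (median 1.43). For HFD in old mice and age on HFD 0 of 32 were called (edgeR). None fell in any comparison. Of all tested genes, 18% were called higher for batch and 1.91% for HFD in young mice. The shares were 7.26% for age on ND and 17.3% for old HFD against young ND. Plvap and Vwf are more typical of capillary and large-vessel endothelium than of sinusoids.

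Genes of the central and portal sides of the sinusoid were few in counts, with 11 of 12 tested. In batch 2, 10 were higher, beside 18% of all tested genes. No gene was called for HFD in young mice (1.91% of all genes called higher), HFD in old mice (1.37%) or age on HFD (1.82%). On ND 2 rose with age (7.26%), Msr1 (log2 2.599, SE 0.68) and Ntn4 (1.65, SE 0.52). Msr1 encodes a scavenger receptor that macrophages make too. In old HFD 8 rose over young ND and 1 fell, beside 17.3% of all tested genes called higher and 12.9% called lower. Wnt2 and Rspo3, which encode signals from endothelium near the central vein to hepatocytes, rose by log2 2.12 (SE 0.50) and 1.91 (SE 0.48). Lhx6 fell by 1.08 on the log2 scale (SE 0.29), the only gene of this list below young ND there.

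Bmp2 has a partner ligand, Bmp6, and a pathway in the hepatocyte that ends in hepcidin. Of 22 genes of this pathway, 1 rose and 2 fell in young HFD, where 1.91% of all genes were called higher and 3.5% in either direction. Hamp2 rose (log2 2.40, SE 0.58), and the signal transducer Smad1 (log2 −0.74, SE 0.13) and the BMP target Id3 (log2 −1.47, SE 0.38) fell. With age on ND 1 rose, beside 7.26% of all genes. It was Bmper (3.24, SE 0.83), an extracellular BMP binding protein. With age on HFD 1 rose (1.82% of all genes), the receptor gene Acvr2b (1.75, SE 0.36), and for HFD in old mice 0 were called (1.37% of all genes called higher). In old HFD against young ND 3 rose and 7 fell, with Bmper (3.94, SE 0.82), Acvr2b (1.43, SE 0.36) and Atoh8 (−1.11, SE 0.29) having the smallest p. Over all tested genes 17.3% were called higher and 12.9% lower there. Bmp6 itself was higher in batch 2 (log2 2.09, SE 0.33), as Bmp2 was, and had log2 differences of 0.43 (SE 0.43) in young HFD and 0.54 (SE 0.43) in old ND, without a call. Hamp, the hepcidin gene, is given here as the end point, outside the rule for named genes. Its level in old HFD was below that in young ND (log2 −1.07, SE 0.40, adjusted p = 0.0429 by edgeR). Hamp2 went the other way there (log2 1.57, SE 0.57, adjusted p = 0.0398 by edgeR), and Bmp2 was higher by 1.502 (SE 0.49). Hamp was not called for HFD at either age or for age on either diet. Hamp and Hamp2 are close copies, so reads could be assigned to the wrong one.

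VEGF-A, the main ligand of Kdr, is made by hepatocytes among other cells. Of 8 VEGF ligand and receptor genes tested, Flt1 (log2 1.62, SE 0.45) and Flt4 (1.73, SE 0.54) rose with age on ND, beside 7.26% of all genes. Both rose in old HFD over young ND, beside 17.3%. None was called for HFD in young mice (1.91% of all genes called higher), HFD in old mice (1.37%) or age on HFD (1.82%). Vegfa had log2 differences of −0.17 to 0.08 in those 5 comparisons, without a call. Among 11 other scavenger and lectin receptor genes, Marco (log2 4.18, SE 0.92), Msr1 (2.599, SE 0.68) and Mrc1 (1.72, SE 0.45) rose with age on ND, and the fatty acid transporter Cd36 rose in young HFD (1.20, SE 0.26). Marco and Msr1 are macrophage receptors, and Mrc1 is made by both macrophages and sinusoidal endothelium. In old HFD 5 of the 11 rose over young ND, beside 17.3% of all genes, and with age on HFD 0 did, beside 1.82%. For HFD in old mice only Asgr1, a hepatocyte receptor gene, was called (0.71, SE 0.18).

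Kupffer and stellate cell markers were also called for batch, for age on ND and for old HFD against young ND. The 13 Kupffer cell genes summed to 1.92 to 91.2 CPM in young ND, 16.5 to 243 CPM in young HFD. In old mice they summed to 60.0 to 1342 CPM on ND and to 73.4 to 768 CPM on HFD. Of them 12 were higher in batch 2, 1 rose in young HFD, 11 rose in old ND and 10 in old HFD over young ND, and 0 were called for HFD in old mice or age on HFD. Their median log2 difference was 3.42 for age on ND, against 1.48 for the endothelial markers. For age on HFD it was 0.96 with 12 of 13 above 0, against 0.01 with 5 of 10 above 0. The 14 stellate cell and fibroblast genes summed to 8.43 to 135 CPM in young ND, 27.3 to 376 CPM in young HFD. In old mice they summed to 108 to 587 CPM on ND and to 45.6 to 522 CPM on HFD. Beside the same shares of all genes, 10 of the 13 tested were higher in batch 2. Over young ND 12 rose in old ND, 10 in old HFD and 3 in young HFD. Again 0 of the 13 were called for HFD in old mice or age on HFD. Their median was 1.99 for age on ND and 0.31 for age on HFD, with 10 of 13 above 0 in the latter. No gene of these 2 lists was at 0 in all mice. The part of these cells in the endothelial values was not tested.

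Lymphocyte and neutrophil markers were called mostly for age. The 13 lymphocyte genes summed to 8.02 to 28.3 CPM in young ND, 4.32 to 19.4 CPM in young HFD. In old mice they summed to 28.5 to 126 CPM on ND and to 9.76 to 57.4 CPM on HFD. Of the 6 tested, 4 rose with age on ND (7.26% of all genes) and 1 was higher in batch 2 (18%). The 6 neutrophil genes summed to under 1 CPM in each young ND mouse (highest 0.924) and to 0.639 to 49.6 in old ND. All 3 of those tested rose with age on ND, and 0 were called for batch. With age on HFD 1 of the 3 neutrophil genes rose, S100a9 (log2 4.37, SE 1.13, adjusted p = 0.0426 by edgeR), beside 1.82% of all genes. The median log2 difference of the 3 was 4.37. None of the 6 lymphocyte genes was called there, and their median was 1.88 with 6 of 6 above 0, whereas the median of the endothelial markers was 0.01. In old HFD over young ND all 3 neutrophil genes and 4 of the 6 lymphocyte genes rose, beside 17.3% of all genes. The 7 cholangiocyte genes summed to 6.44 to 14.9 CPM in young ND and 18.5 to 40.3 in old HFD, and of 2 tested 1 rose in old HFD over young ND.

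The hepatocyte genes were called mainly between old HFD and young ND. Of 12, 2 were lower and 0 higher in batch 2, 0 were called for HFD in young mice or for age on either diet, 1 rose for HFD in old mice, and 2 rose and 4 fell in old HFD against young ND, where 17.3% of all genes were called higher and 12.9% lower (30.2% in either direction). Their summed level was nonetheless lower in every batch 2 mouse than in every batch 1 mouse of young ND (113300 to 130200 against 141900 to 149100 CPM), young HFD (95480 to 119100 against 132700 to 143800 CPM) and old HFD (92800 to 103200 against 104200 to 138600 CPM). Its part in the batch difference of the endothelial markers was not tested. The sum was 54980 CPM in old ND replicate 4 and 131700 to 167200 CPM in the other 5 old ND mice. The same mouse had the highest summed endothelial level of the 24, 824 CPM, against 55.9 to 267 CPM in the rest of its group.

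**Figure D5:**
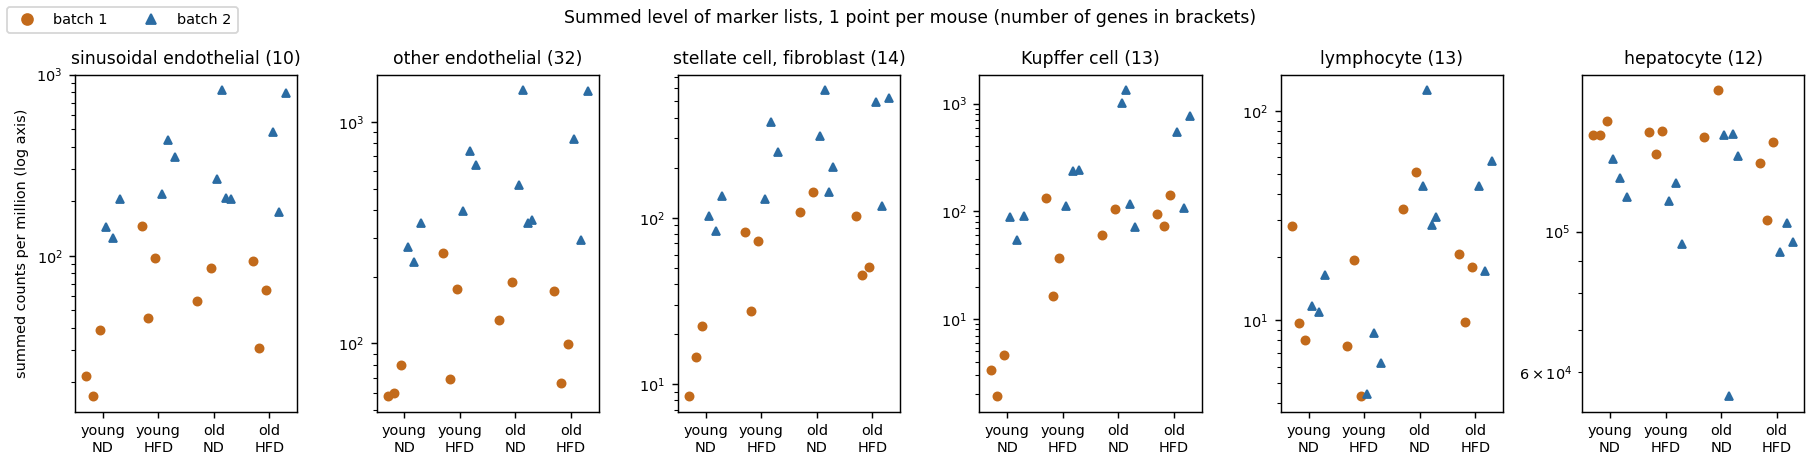
Summed CPM of 6 marker lists on a log axis, 1 point per mouse, by group, with batch 1 as circles and batch 2 as triangles. The endothelial lists show batch 2 above batch 1 in every group, and old ND replicate 4 is highest for the sinusoidal endothelial genes at 824 CPM and lowest for the hepatocyte genes at 54980 CPM.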

How the data were processed

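PolyA RNA of hepatocytes from 24 mice was sequenced. Per the study's methods, the authors aligned reads to mm10 with STAR and counted them on Gencode genes with HTSeq 0.11.2. The deposited counts are whole read counts per gene, without normalization, for 55421 genes. The deposited FPKM values, for 37789 genes, came from CuffLinks and were adjusted between batches by the authors with ComBat, as that table names it. The submitters' processing notes name STAR 2.7.3a and FastQC 0.11.8. Strand setting and duplicate removal are not given in the sources used here.

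The counts were tested with edgeR 4.0.16 in R 4.3.3: TMM normalization, the filterByExpr minimum by group (13583 genes kept), 1 model of 24 mice with terms for group and for batch, and its quasi-likelihood test, with p adjusted after Benjamini-Hochberg over all tested genes and a threshold of 0.05. P-values measure the spread between mice. Total counts of 9200332 to 22185069 per mouse set the precision of rare genes. CPM used the total count without TMM factors, and correlations used log2 CPM with a prior count of 2. Alternatives were DESeq2 1.42.0, RLE and upper-quartile scaling, no count filter, no batch term, the replicate number as a block, only the groups compared, each batch alone, limma 3.58.1 on log2(FPKM + 1) and log2(FPKM + 0.1), and leaving out each mouse.

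The members and gene lists were chosen with earlier results of these data known. The text names all 10 members, at most 3 genes with the smallest p of each other list in a comparison, and the 10 genes most like the members' mean; Cdh5, Tek, Vegfa, Bmp6 and Hamp were added to say what a list holds. One listed symbol, Hfe2, was found under its newer name Hjv. Promoters came from RefSeq, 250 bases before each start, of which 83 were left out for Stab2. Gene positions are on GRCm38, the build called mm10. Figures used Python 3.11.15, numpy 2.4.6, pandas 2.3.3 and matplotlib 3.10.9.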

Additional observations from a re-analysis of the deposited data

Results flagged for a closer look

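Old ND replicate 4 stood apart from the other 5 old ND mice for all 10 markers and their sum, by a gap to the next mouse above 0.625 of the group's range (Dixon's 95% value for 6 samples). Its levels were 85.5 CPM for Stab1 (next highest 27.6), 104 CPM for Stab2 (33.2), 140 CPM for Clec4g (37.0), 15.6 CPM for Lyve1 (2.37), 41.4 CPM for Pecam1 (13.6) and 125.5 CPM for Kdr (46.1). They were 39.3 CPM for Bmp2 (15.4), 118 CPM for Fcgr2b (37.4), 47.0 CPM for Oit3 (14.4) and 108 CPM for Dnase1l3 (41.3), and 824 CPM for the sum (267). These 11 values came from 44 groups examined. Dixon's value assumes normally distributed values from a single population, whereas these groups pool both batches on the unlogged CPM scale. The flag is therefore a description, and no chance rate is attached to it. They are 1 mouse and correlated genes, so they are not 11 separate events. The hepatocyte genes were also lowest in this mouse, at 54980 CPM.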

How the results depend on the processing

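In HFD in young mice, age on ND, old HFD against young ND, the interaction and batch, a member's fold change kept its direction and side of the threshold in 347 of 470 refits under other settings, passed it newly in 53, no longer passed it in 70 and turned in 0. Of 1200 refits that left out 1 mouse, these counts were 1091, 32, 77 and 0. In HFD in old mice and age on HFD, where no member was called, 50 of 220 refits under other settings and 81 of 480 that left out 1 mouse turned, and none passed the threshold. Counts of members called moved as follows, with the percent of all tested genes called in either direction in brackets, and the cause was not tested. For HFD in young mice, 1 member was called (3.5%). It was 8 with DESeq2 (9.24%), 2 with upper-quartile scaling (3.45%), 10 without a count filter (4.56%) and 10 with only the 2 groups compared (18.6%). It was 0 without the batch term (1.28%), in batch 2 alone (0.0632%) or with limma on log2(FPKM + 1) (2.28%), and leaving out 1 mouse gave 0 to 6 (1.05% to 7.23%). For age on ND, 5 were called (8.5%). It was 10 without a count filter (6.35%), and 0 without the batch term (4.62%), in batch 1 alone (0.687%), in batch 2 alone (0.014%) or with limma at pseudocounts of 1 (1.91%) and 0.1 (4.21%), and leaving out 1 mouse gave 0 to 7 (4.26% to 11.5%). For old HFD against young ND, 9 were called (30.2%). It was 1 without the batch term (22.4%), 1 in batch 1 alone (6.79%), 0 in batch 2 alone (4.33%), and 2 (23.3%) and 3 (24.6%) with limma at pseudocounts of 1 and 0.1, and leaving out 1 mouse gave 2 to 10 (24.1% to 34.1%). At pseudocounts of 1 and 0.1 limma also gave smaller median log2 differences of the members. They were 0.43 and 1.12 for HFD in young mice, 0.37 and 0.97 for age on ND, and 0.36 and 0.96 for old HFD against young ND. Median FPKM over 24 mice was only 0.063 (Pecam1) to 1.22 (Clec4g). For the interaction, 0 were called (0%). It was 10, all lower, without a count filter (1.82%, 587 genes), and 0 to 0 leaving out 1 mouse (0% to 0.00723%). Batch kept 10 in all refits, and HFD in old mice and age on HFD kept 0.

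The values that turned are log2 fold changes, and the cause was not tested. For HFD in old mice they were Pecam1 0.00057 with RLE scaling. Others were Pecam1 0.015 and Bmp2 0.00058 with upper-quartile scaling, and Kdr −0.0075 with DESeq2. Others were Kdr −0.010 without a count filter, and Stab2 −0.00997, Clec4g −0.076, Kdr −0.10 and Bmp2 0.011 without the batch term. Others were Clec4g −0.47, Kdr −0.67, Fcgr2b −0.46 and Oit3 −0.33 with a replicate block, and Pecam1 0.036 with only the 2 groups compared. Others were Clec4g −0.30, Kdr −0.45, Fcgr2b −0.39 and Oit3 −0.15 in batch 1 alone, and Stab1 0.22, Pecam1 0.23, Bmp2 0.49 and Dnase1l3 0.17 in batch 2 alone. Others were Pecam1 0.00040 with limma on log2(FPKM + 1), and Pecam1 0.019 and Kdr −0.024 with limma on log2(FPKM + 0.1). Leaving out 1 mouse gave Stab1 −0.45 to 0.40, Clec4g −0.27 to 0.71, Pecam1 −0.43 to 0.56, Kdr −0.38 to 0.49, Bmp2 −0.38 to 0.35, Fcgr2b −0.21 to 0.53, Oit3 −0.32 to 0.72 and Dnase1l3 −0.42 to 0.42. For age on HFD they were Bmp2 0.016 with RLE scaling. Others were Bmp2 0.013 with upper-quartile scaling, and Clec4g −0.0089 without a count filter. Others were Stab1 0.25, Kdr 0.46, Bmp2 0.47, Oit3 0.19 and Dnase1l3 0.12 without the batch term, and Stab2 −0.00060, Clec4g −0.0090 and Lyve1 −0.11 with a replicate block. Others were Stab2 −0.34, Clec4g −0.87, Lyve1 −0.23, Pecam1 −0.45 and Fcgr2b −0.47 in batch 1 alone, and Stab1 0.40, Kdr 0.67, Bmp2 0.64, Oit3 0.38 and Dnase1l3 0.25 in batch 2 alone. Others were Stab2 −0.0043 and Clec4g −0.019 with limma on log2(FPKM + 1), and Stab2 −0.026 and Clec4g −0.057 with limma on log2(FPKM + 0.1). Leaving out 1 mouse gave Stab1 −0.42 to 0.11, Stab2 −0.098 to 0.21, Clec4g −0.24 to 0.36, Lyve1 −0.27 to 0.54, Pecam1 −0.27 to 0.31, Kdr −0.40 to 0.26, Bmp2 −0.34 to 0.26, Fcgr2b −0.097 to 0.53, Oit3 −0.58 to 0.17 and Dnase1l3 −0.53 to 0.050.

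With a replicate block instead of the batch term, 10 members were called for age on ND (9.94% of all genes), 7 for old HFD against young ND (25.6%) and 1 for HFD in young mice (2.08%). The numbers belong to different mice: same-numbered mice correlated at a mean of 0.182 over 36 pairs (lowest −0.321) and at −0.0467 with batch means removed, and 7 of 24 mice correlated best with their own number, so no pairing was taken. Low counts of Lyve1 and, in 1 mouse, Bmp2 limit their folds.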
